A study of Homo sapiens with 12 samples.

Results

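The transcripts described here are long non-coding RNA (lncRNA) records with Ensembl identifiers whose gene does not appear in the deposited table of protein-coding genes. Records named as small nucleolar RNA host genes (SNHG) or as numbered antisense genes (AS) were left out, and transcripts averaging under 1 FPKM across the 12 libraries were dropped. FPKM is fragments per kilobase of transcript, scaled to the mapped fragments of the library. These rules kept 580 transcripts of 473 genes, out of 6496 transcripts at that level and 107659 in the whole lncRNA table, and 43414 met them without the FPKM minimum. The members were thus selected on their mean FPKM, which is given as a description. Just inside the limit were CASC11-202, AL353719.1-201 and AL591895.1-201, between 1.00004 and 1.002 FPKM, and just outside were AC008443.1-205 at 0.999 FPKM, AP005205.2-201 at 0.996 FPKM and CASC19-271 at 0.995 FPKM.

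All libraries came from TE-1, an oesophageal cancer cell line, grown in DMEM with 10% fetal bovine serum and sequenced as total RNA 48 h after transfection. The 4 groups, with 3 libraries each, received a vector over-expressing IFI6 (OE_IFI6), its control vector (OE_control), an interference vector against IFI6 (sh_IFI6) or the interference control (sh_control). IFI6, an interferon-inducible gene, stood at 309, 268 and 358 FPKM in OE_IFI6 and at 27.3, 17.9 and 28.8 FPKM in OE_control. It stood at 15.1, 13.9 and 14.7 FPKM in sh_IFI6 and at 24.9, 24.1 and 21.2 FPKM in sh_control, so neither pair of groups overlapped. Nothing in the labels ties the replicates to separate cultures. The p-values therefore measure the spread among these libraries alone, which may be technical. Of the markers examined, the keratins KRT8 (706 to 1157 FPKM) and KRT18 (355 to 543 FPKM) were high, whereas the squamous keratins KRT5 and KRT6A, the epithelial gene EPCAM and the squamous factor SOX2 were listed at 0 in every library, and CDH1 and TP63 were at or below 0.332 FPKM. SFN, an epithelial gene of the 14-3-3 family, was at 43.1 to 67.8 FPKM. KRT17 averaged 3.65 FPKM in OE_control and 0.693 to 0.968 FPKM in the other groups, and KRT19 0.668 FPKM against 0.194 to 0.385 FPKM. Their part in the results below was not tested. All 11 markers of fibroblasts, endothelial and immune cells were at or below 3.23 FPKM. In bulk RNA, fewer cells of a type and less RNA per cell cannot be told apart.

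LncRNAs are transcribed by the same polymerase as messenger RNA in most cases, and many are spliced but not translated. Some act in the nucleus, such as MALAT1 in nuclear speckles. Others are mainly hosts whose introns or exons release small RNAs, or arise where transcription starts in both directions from a coding promoter. Small nuclear RNAs (snRNAs) are short structured RNAs of the spliceosome. U1 recognises the start of an intron, and U11 does the corresponding work for the rare minor class of introns, whose splicing also uses U12. Small Cajal body RNAs (scaRNAs) guide the chemical modification of snRNAs.

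Several of the most abundant members were annotated on top of such small RNA genes, and their sequences show how closely. The lines below give 3 of these transcripts from GENCODE release 29 (GRCh38, plus strand), 5′ to 3′, with the bases shared with the small RNA gene in capitals. AL360012.1-201 (chr1:28648600-28648730, 131 nt) lies wholly within RNU11, the U11 snRNA gene. For AC245014.3-201 (347 nt) and Z93241.1-201 (664 nt) the first 300 nt are shown (chr1:145281116-145281415 and chr22:42615244-42615543). Their first 164 nt and 150 nt are RNVU1-14, a variant U1 gene, and RNU12, the U12 snRNA gene.
AC245014.3-201: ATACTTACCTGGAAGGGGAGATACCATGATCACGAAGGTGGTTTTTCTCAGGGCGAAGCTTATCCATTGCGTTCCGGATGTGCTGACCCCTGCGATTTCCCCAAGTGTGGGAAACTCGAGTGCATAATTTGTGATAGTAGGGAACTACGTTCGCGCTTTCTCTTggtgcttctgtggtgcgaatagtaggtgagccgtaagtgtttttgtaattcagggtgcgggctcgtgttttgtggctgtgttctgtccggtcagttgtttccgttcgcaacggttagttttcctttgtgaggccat
AL360012.1-201: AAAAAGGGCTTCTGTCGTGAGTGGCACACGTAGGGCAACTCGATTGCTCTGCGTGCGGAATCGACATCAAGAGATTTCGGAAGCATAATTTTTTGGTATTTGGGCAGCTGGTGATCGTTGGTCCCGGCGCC
Z93241.1-201: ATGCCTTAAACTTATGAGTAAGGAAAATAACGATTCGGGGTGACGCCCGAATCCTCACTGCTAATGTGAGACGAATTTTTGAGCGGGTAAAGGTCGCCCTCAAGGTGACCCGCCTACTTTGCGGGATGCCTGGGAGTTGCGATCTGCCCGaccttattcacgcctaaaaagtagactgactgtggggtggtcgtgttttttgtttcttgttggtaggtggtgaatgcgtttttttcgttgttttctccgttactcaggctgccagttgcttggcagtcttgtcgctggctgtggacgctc

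Among the most abundant members was AC006064.4-201, at 152.8 to 250.4 FPKM, which lies wholly on exon bases of GAPDH, a glycolytic enzyme gene, on the opposite strand. GAPDH itself was at 6121 to 7823 FPKM. The authors' use of strand in quantification was not stated, so reads of a gene and of its antisense partner cannot be told apart. The 10 most abundant members held 40.5% of the FPKM summed over all 580, while the median member had 1.79 FPKM and 80 members reached 5 FPKM.

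At the U11 and SCARNA2 genes the reads were listed under 1 record in some libraries and under the other record in the rest. AL360012.1-201 was at 54.2, 52.98 and 46.6 FPKM in OE_IFI6, 33.8, 17.9 and 23.8 FPKM in OE_control, 57.2, 45.2 and 0 FPKM in sh_IFI6, and 0, 34.9 and 42.5 FPKM in sh_control. In the 2 libraries where it was listed at 0, RNU11 was at 46.7 and 42.3 FPKM, and in the other 10 RNU11 was at 0.680 to 2.09 FPKM. AL356488.2-201 shares 420 of its 427 nt with SCARNA2. It was at 0.223 to 0.291 FPKM in 5 libraries, where SCARNA2 was at 74.0 to 191 FPKM, and at 65.3 to 205 FPKM in the other 7, where SCARNA2 was at 7.83 to 13.1 FPKM. The level of either record alone at these loci therefore does not measure the locus.

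**Figure D1:**
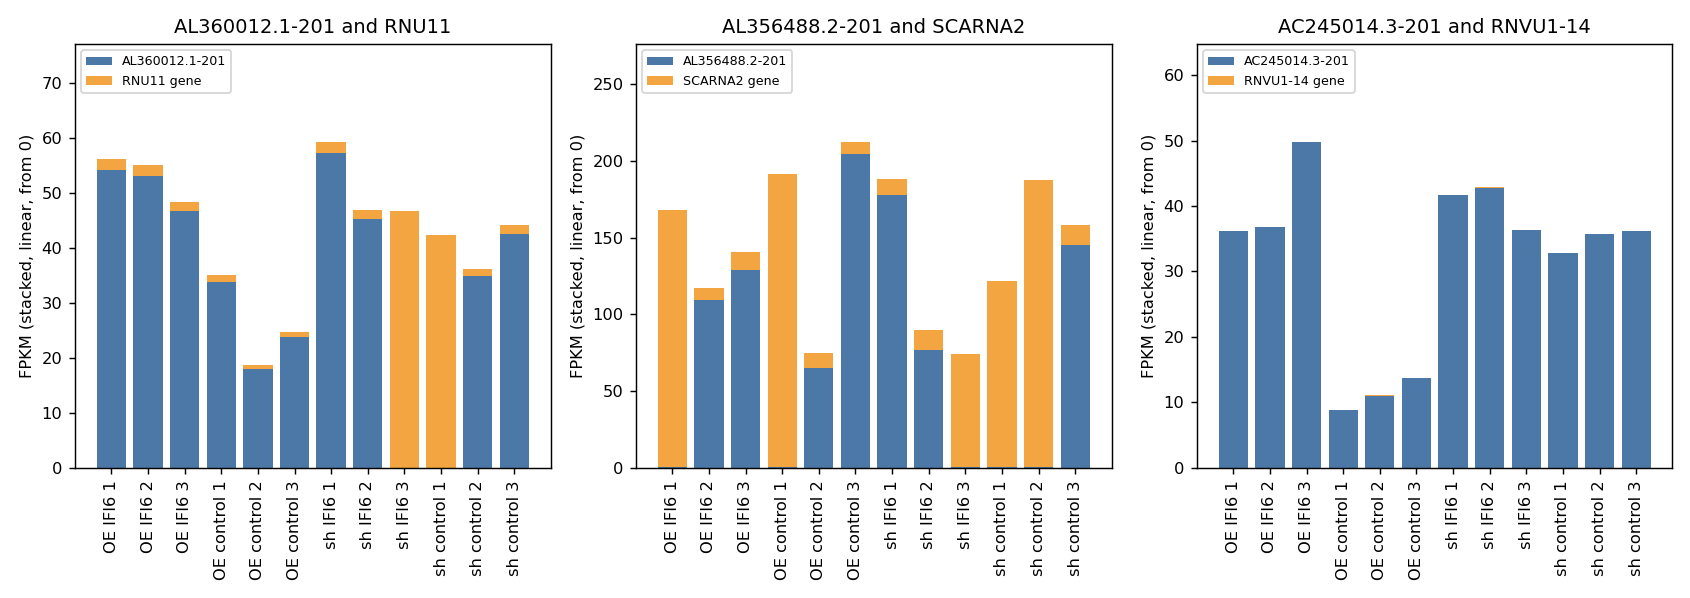
Stacked bars of FPKM for 3 member transcripts (blue) and the small RNA gene each overlaps (orange) in the 12 libraries. The U11 and SCARNA2 loci switch record between libraries, whereas the locus of AC245014.3-201 is carried by the member alone and is lowest in the 3 OE_control libraries.

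Summing the 2 records, the U11 locus averaged 53.2 ± 4.21 FPKM in OE_IFI6 and 26.1 ± 8.28 FPKM in OE_control (SD, n = 3 each), with 51.0 ± 7.22 FPKM in sh_IFI6 and 40.9 ± 4.16 FPKM in sh_control. The OE_IFI6 and OE_control libraries did not overlap, a ratio of 2.04, with a two-sided exact permutation p of 0.1, the smallest that 3 against 3 can give. The sums did not overlap in sh_IFI6 against sh_control either (ratio 1.246) or in OE_control against sh_control (ratio 0.638), each with an exact permutation p of 0.1. For the SCARNA2 locus the sums overlapped, at 142 ± 25.6 FPKM in OE_IFI6 and 159 ± 74.2 FPKM in OE_control (SD, n = 3 each; exact permutation p = 0.7). These sums were formed after the values had been seen.

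Other members overlapped small RNA genes as well. AL355075.4-201 contains RPPH1, the RNA of ribonuclease P, and was at 11.1 to 25.7 FPKM while RPPH1 was at 23273 to 45811 FPKM. AC007952.4-201 contains SNORD3D, a copy of the U3 small nucleolar RNA, and ranged from 0.415 to 17.8 FPKM beside 1.31 to 8.05 FPKM for SNORD3D, the lowest value of the member and the highest of SNORD3D being those of OE_IFI6 replicate 3. The sum of the 2 records was 12.7 ± 4.61 FPKM in OE_IFI6, 4.87 ± 1.47 FPKM in OE_control, 17.8 ± 2.63 FPKM in sh_IFI6 and 10.2 ± 4.41 FPKM in sh_control (SD, n = 3 each). It did not overlap in OE_IFI6 against OE_control (ratio 2.61) or in sh_IFI6 against sh_control (ratio 1.75), each with an exact permutation p of 0.1, and overlapped between the controls (ratio 0.478, exact permutation p = 0.3). U1 and U3 have many near-identical copies in the genome, so the values of these records, and of AC245014.3-201, are uncertain as to which copy the reads came from.

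Over-expression of IFI6 was compared with its control vector by limma on log2(FPKM + 1), with all 6496 lncRNA-table transcripts in the fit. On this scale differences of transcripts near 1 FPKM are understated. Of the 580 members 2 rose and 0 fell at an adjusted p under 0.05, against 0.246% called among all tested transcripts (0.108% higher and 0.139% lower). At an unadjusted p under 0.05 there were 74 members (12.8%), near the 11.3% of all tested transcripts. The 2 that rose were AC245014.3-201, at the variant U1 gene, and LINC00294-201, a transcript of a single exon.

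AC245014.3-201 was at 36.1, 36.8 and 49.8 FPKM in OE_IFI6, 8.75, 10.97 and 13.7 FPKM in OE_control, 41.7, 42.8 and 36.4 FPKM in sh_IFI6, and 32.8, 35.8 and 36.2 FPKM in sh_control. All 3 OE_control libraries lay below the other 9, which overlapped among themselves except that every sh_IFI6 library was above every sh_control library. The difference of OE_IFI6 from OE_control was 1.79 on the log2 scale (SE 0.22, limma adjusted p = 0.0167). It missed the threshold without OE_control replicate 1 (limma adjusted p = 0.0549), with no FPKM filter (0.0530) and with only these 2 groups in the fit (0.197), and the RNVU1-14 record was listed at 0 to 0.0699 FPKM throughout.

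LINC00294-201 (ENSG00000280798, chr11:33076149-33079454, plus strand) is a single exon of 3306 nt, 7.96% of which lies on exon bases of CSTF3 on the opposite strand. It was at 13.6, 13.996 and 14.4 FPKM in OE_IFI6, 5.05, 6.70 and 6.18 FPKM in OE_control, 13.5, 15.7 and 15.3 FPKM in sh_IFI6, and 15.1, 13.5 and 13.7 FPKM in sh_control. Again the OE_control libraries were the low ones, and the other 9 lay between 13.5 and 15.7 FPKM. The difference was 1.11 (SE 0.18, limma adjusted p = 0.0416), and it did not pass in 11 of the 12 fits that each left out 1 library, and passed only without sh_IFI6 replicate 1. Over the 12 fits the limma adjusted p ranged from 0.0485 to 0.114. The call also ended with no FPKM filter (0.157), with only the 2 groups in the fit (0.302) and with the replicate number as a block (0.119). At gene level, with the same values, the limma adjusted p was 0.000266 and the call held in all 12 such fits. CSTF3, a subunit of the mRNA cleavage stimulation factor, was at 6.35 ± 0.963 FPKM in OE_IFI6 and 8.73 ± 0.772 FPKM in OE_control (SD, n = 3 each), a difference of -0.41 (limma adjusted p = 0.0720 over the coding genes).

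The promoter of LINC00294 is shown because it is the called member with an entry of its own symbol in the RefSeq promoter table (GRCh38.p14, chr11:33075900-33076199, plus strand, 250 bases before the start to 50 after). Capitals mark the pentamer CCAAT on either strand.
LINC00294: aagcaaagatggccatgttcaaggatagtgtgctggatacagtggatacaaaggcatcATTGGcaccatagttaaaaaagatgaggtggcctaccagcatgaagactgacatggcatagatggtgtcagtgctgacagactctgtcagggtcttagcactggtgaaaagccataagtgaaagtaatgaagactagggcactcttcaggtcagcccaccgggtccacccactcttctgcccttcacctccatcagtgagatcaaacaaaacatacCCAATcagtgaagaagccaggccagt
CCAAT, found once on each strand here, occurs in 34.6% of the 35116 promoters of this length. The plus-strand match lies in the 50 bases after the start, and the minus-strand match lies before the start. The GC box GGGCGG was searched on both strands, had no match in this window and occurs in 44.95% of promoters. The TATA box TATAAA likewise had no match and occurs in 11.5%. The E-box CACGTG had no match and occurs in 7.26%.

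**Figure D2:**
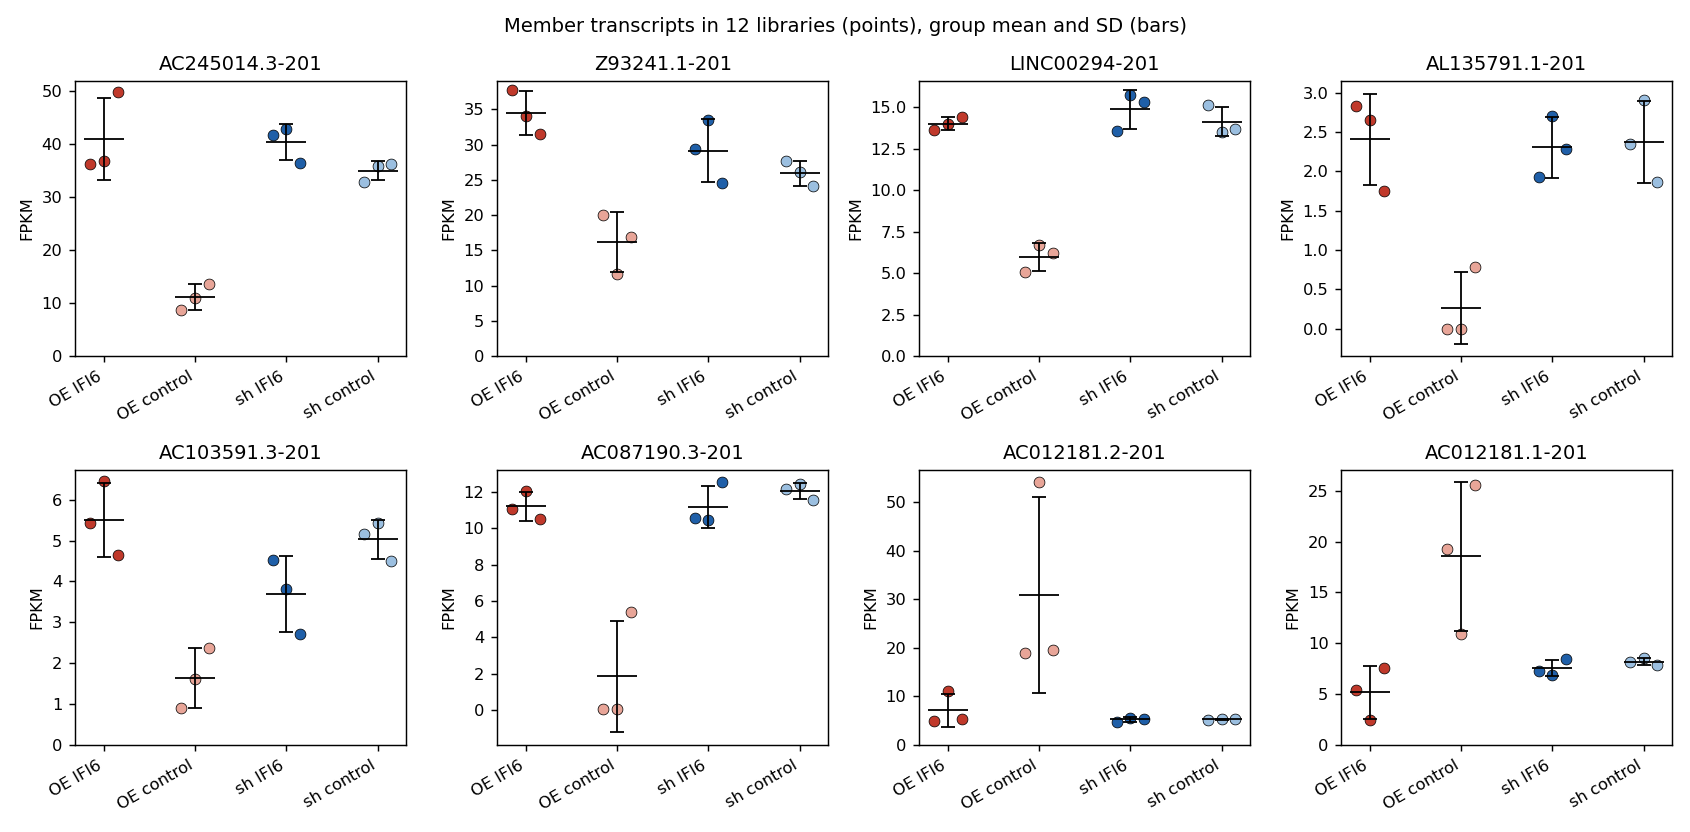
FPKM of 8 member transcripts in each library (points, coloured by group) with the group mean and SD (n = 3, bars). In the first 6 panels the OE_control libraries are the lowest, and in the last 2, the HERPUD1-intron transcripts, they are the highest.

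Without a test, 126 of the 580 members (21.7%) had OE_IFI6 and OE_control libraries that did not overlap, 79 higher and 47 lower in OE_IFI6, against 16.5% of all tested transcripts. The median difference over the members was 0.11 on the log2 scale, against -0.00 over all tested transcripts.

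Many of these genes have several transcripts, and the authors' table gives a gene as the sum of them, so the comparison was repeated on 14006 annotated genes. At gene level 36 of the 473 member genes passed, 22 higher and 14 lower in OE_IFI6. That is 7.61% of the member genes, near the 7.32% called among all genes tested (4.09% higher and 3.23% lower). OE_control had the lowest of the 4 group means in 22 of the 36 and the highest in the other 14. These genes were selected on the difference between OE_IFI6 and OE_control. The order of those groups was thus fixed, and only the sh groups could change the rank of OE_control. Of the 36, 21 were also called between the controls, and both contrasts share the OE_control libraries. The corresponding shares among all genes were not computed. In 23 of the 36 the member transcripts carried at least 90% of the gene's FPKM, and in 7 they carried under 50%, as for CASC11, whose member is 5.57% of its gene. The count fell to 23 without OE_IFI6 replicate 2, and 19 of the 36 passed in all 12 fits that left out 1 library. Genes with a single transcript have the same values in both tables and differ in the call because the spread and the number of tests are those of each table. The gene-level examples below were chosen after their values had been seen.

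**Figure D3:**
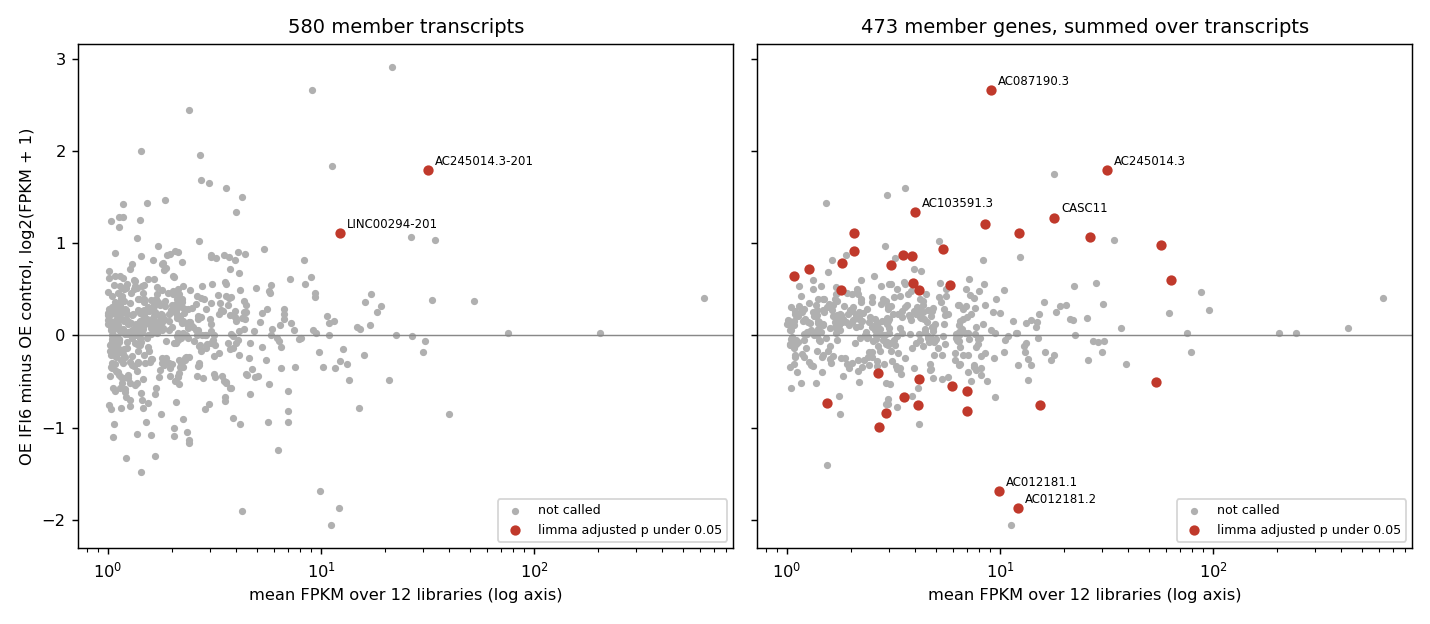
Difference of OE_IFI6 from OE_control in log2(FPKM + 1) against mean FPKM (log axis), for the 580 transcripts (left) and the 473 gene sums (right), with limma calls in red. The 2 transcripts called on the left are among the 36 genes called on the right, which lie in both directions.

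Z93241.1, at the U12 gene, was the other snRNA locus among the rises. It was at 37.7, 34.0 and 31.5 FPKM in OE_IFI6, 19.996, 11.6 and 16.9 FPKM in OE_control, 29.4, 33.4 and 24.5 FPKM in sh_IFI6, and 27.6, 26.0 and 24.1 FPKM in sh_control. The OE_control libraries were again below all others. The difference was 1.07 (SE 0.18, limma adjusted p = 0.00441 at gene level, not passed at transcript level), so the U11, U12 and variant U1 loci were each lowest in OE_control. OE_control replicate 2 also had the lowest level of RN7SK (24260 FPKM, against 29093 to 49731 FPKM in the other 11 libraries). For RN7SK, OE_control replicates 1 and 3 lay within the range of the other groups. Replicate 2 was lowest too for RPPH1 (23273 FPKM), RN7SL1 (14019 FPKM), RMRP (15706 FPKM) and the FPKM summed over all annotated genes (456297). OE_control replicate 1 was the highest library for RPPH1 (45811 FPKM), RMRP (29291 FPKM) and that sum (568643). RN7SL2 was instead lowest in OE_IFI6 replicate 1 (78.1 FPKM). The part of library composition in the snRNA differences was not tested.

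Other rises stood on or in coding genes. AC087190.3-201 (chr16:9104848-9113181) lies wholly on exon bases of C16orf72 on the same strand, so its reads cannot be separated by position from those of that gene. It was at 11.1, 12.1 and 10.5 FPKM in OE_IFI6 but 0.0663, 0.0502 and 5.39 FPKM in OE_control, and at 10.5 to 12.6 FPKM in the other 6 libraries. C16orf72 was at 10.6, 19.4 and 8.24 FPKM in OE_control and 8.63 to 11.1 FPKM elsewhere. The difference of AC087190.3 was 2.66 (SE 0.52, limma adjusted p = 0.0111 at gene level).

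AC103591.3-201 (chr1:78004346-78004554, minus strand, 209 nt) lies in DNAJB4, a heat shock co-chaperone gene, on the opposite strand and without shared exon bases. It was at 5.43, 6.46 and 4.65 FPKM in OE_IFI6 and 0.909, 1.62 and 2.37 FPKM in OE_control, with 2.70 to 5.43 FPKM in the sh groups. DNAJB4 moved the other way, at 10.1 ± 3.09 FPKM in OE_IFI6 and 22.7 ± 3.40 FPKM in OE_control (SD, n = 3 each). In the sh groups DNAJB4 was at 6.42 to 10.6 FPKM. The differences were 1.34 for AC103591.3 (limma adjusted p = 0.00310 at gene level) and -1.12 for DNAJB4 (limma adjusted p = 0.00793 over the coding genes). AL135791.1, whose exons share 41.4% of their bases with ZNF248 on the opposite strand, rose by 1.11 (limma adjusted p = 0.00194 at gene level), and ZNF248 differed by 0.08 (limma adjusted p = 0.800). The member transcript AL135791.1-201 averaged 0.263 FPKM in OE_control and 2.41 FPKM in OE_IFI6. It averaged 2.31 FPKM in sh_IFI6 and 2.38 FPKM in sh_control.

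Rises without a coding gene over the transcript included AL035071.1, from 3.21 ± 1.12 FPKM in OE_control to 6.88 ± 0.618 FPKM in OE_IFI6 (SD, n = 3 each), and AC093297.2, from 0.944 ± 0.105 to 2.71 ± 0.713 FPKM (SD, n = 3 each). Both passed at gene level (limma adjusted p = 0.00663 and 0.00453). At transcript level AL035071.1-201 and AC093297.2-201 did not pass, with differences of 0.93 and 0.91 (limma adjusted p = 0.117 and 0.0898). In OE_control relative to sh_control these transcripts differed by -0.97 and -0.92 (limma adjusted p = 0.120 and 0.0966). In sh_IFI6 relative to sh_control they differed by -0.55 and -0.32 (limma adjusted p = 0.840 and 0.878). The neighbouring cancer-associated genes CASC11 and CASC19 rose by 1.28 and 0.98 at gene level (limma adjusted p = 0.000503 and 0.0152), most of their FPKM being in transcripts outside the members, and CASC19 missed the threshold without OE_IFI6 replicate 2 (limma adjusted p = 0.0579).

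Among the 14 falls, the largest were AC012181.2 and AC012181.1, annotated in introns of HERPUD1 on the same strand (chr16:56940278-56941342 and chr16:56941028-56941726). HERPUD1 encodes a protein of the endoplasmic reticulum that takes part in the disposal of misfolded proteins. AC012181.2 was at 4.93, 10.997 and 5.38 FPKM in OE_IFI6, 18.9, 54.2 and 19.5 FPKM in OE_control, and 4.74 to 5.63 FPKM in the 6 sh libraries. AC012181.1 was at 5.40, 2.47 and 7.60 FPKM in OE_IFI6, 19.3, 10.9 and 25.5 FPKM in OE_control, and 6.91 to 8.55 FPKM in the sh libraries. The OE_control libraries lay above all 9 others for both. The annotated spans of AC012181.2 and AC012181.1 overlap each other, so they may share reads and are not separate observations. In replicate 2 of OE_IFI6 and of OE_control, AC012181.2 had its highest value of the group and AC012181.1 its lowest. AC012181.2 and AC012181.1 fell by 1.88 (SE 0.36) and 1.69 (SE 0.32) in OE_IFI6 relative to OE_control, with limma adjusted p of 0.00923 and 0.00912 at gene level, and HERPUD1 itself went from 245 ± 60.3 to 87.5 ± 2.88 FPKM (SD, n = 3 each; limma adjusted p = 0.000423 over the coding genes). In the 6 sh libraries HERPUD1 was at 77.2 to 114 FPKM.

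Further falls lay in or on SDC4 (AL021578.1, -0.82) and IFIT2 (AL353751.1, -0.76). SDC4 encodes the heparan sulfate proteoglycan syndecan 4, and IFIT2 is an interferon-induced gene. AL021578.1 was at 3.93 to 5.65 FPKM in OE_IFI6 and 8.17 to 10.8 FPKM in OE_control (limma adjusted p = 0.00766 at gene level). AL353751.1, which shares 71.9% of its exon bases with IFIT2 on the same strand, was at 10.7 to 15.2 FPKM and 16.3 to 28.5 FPKM (limma adjusted p = 0.0313 at gene level). Its call ended in 4 of the 12 fits that left out 1 library, up to an adjusted p of 0.105 without OE_IFI6 replicate 2. Neither SDC4 (-0.29, limma adjusted p = 0.225) nor IFIT2 (-0.32, limma adjusted p = 0.294) passed.

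For 196 of 219 pairs of a member and an overlapping coding gene, and for 135 of 149 pairs with divergent starts within 2000 nt, the coding gene was expressed enough to be tested. In these pairs the relation between the 2 differences of OE_IFI6 from OE_control varied with the arrangement. For the 36 tested pairs on the same strand without shared exon bases Pearson's r was 0.64 and Spearman's rho 0.20, and r was 0.08 over the 34 pairs left without the HERPUD1 transcripts. For the 93 tested pairs sharing exon bases on the opposite strand r was 0.34, for 41 sharing them on the same strand -0.26, for 26 in a gene body on the opposite strand -0.33, and for the 135 divergent pairs 0.14. The pairs share their libraries, and some share reads, so these values are descriptions.

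**Figure D4:**
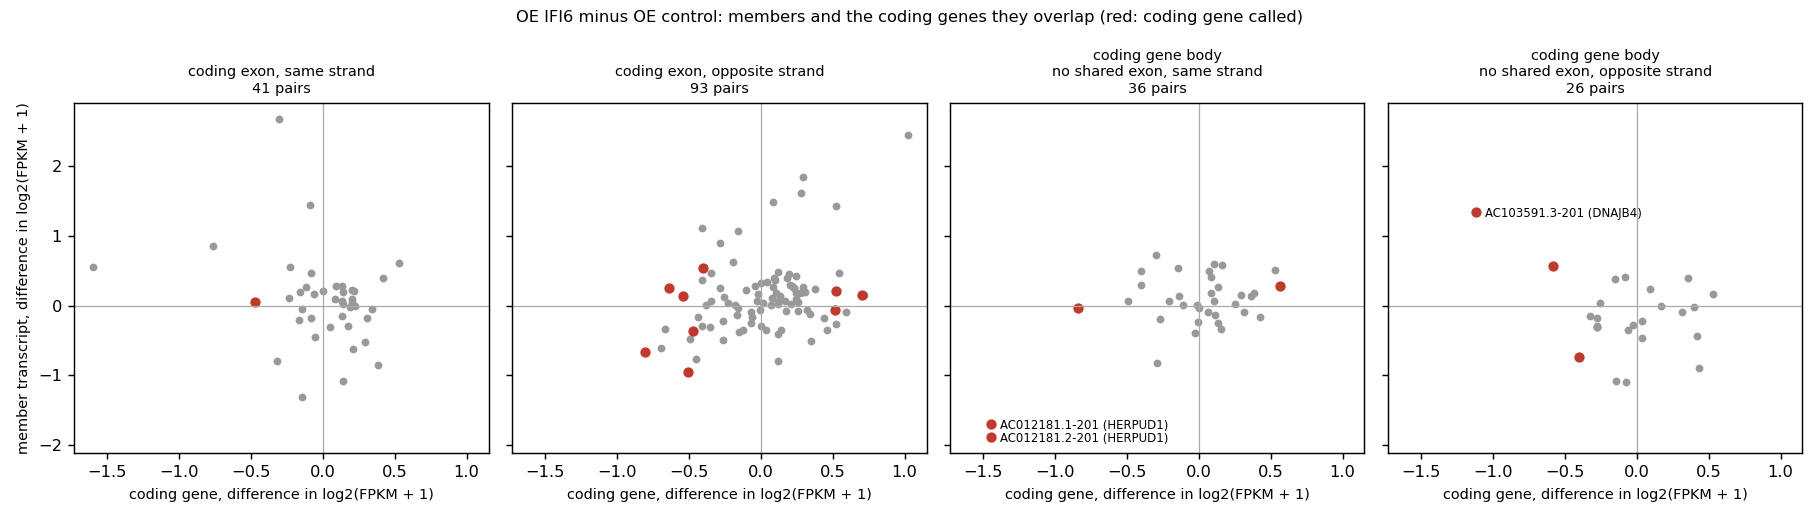
Difference of OE_IFI6 from OE_control in log2(FPKM + 1) for members (vertical axis) and the coding genes they overlap (horizontal axis), by arrangement, with coding genes called by limma in red. The HERPUD1-intron transcripts lie at the lower left of the third panel, and AC103591.3-201 with DNAJB4 at the upper left of the fourth.

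Interference against IFI6 was compared with its own control. No member passed in limma's test, where 23 of 580 (3.97%) had an unadjusted p under 0.05 against 5.65% of all tested transcripts, the lowest adjusted p was 0.797, and 0.0462% of all tested transcripts were called. At gene level 0 of 473 passed, with 28 at an unadjusted p under 0.05, a lowest adjusted p of 0.844 and 0% called among all genes. AC245014.3-201 differed by 0.20 (SE 0.22) and LINC00294-201 by 0.07 (SE 0.18). The libraries did not overlap for 80 members (13.8%, 39 higher and 41 lower in sh_IFI6, against 13% of all tested transcripts).

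Among the members with the smallest unadjusted p was GAS5-209, which was listed at 0 in 10 libraries and at 16.1 and 21.7 FPKM in sh_control replicates 2 and 3. AC106795.1-210 was at 3.75, 7.52 and 8.06 FPKM in sh_IFI6 and 0.0331, 5.78 and 0.190 FPKM in sh_control. The groups overlapped for both. Also among the smallest were GAS5-207 (-0.88), AC084036.1-201 (-0.75) and AL591895.1-201 (0.65), each at a limma adjusted p of 0.797.

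The 2 controls, which differ in vector, were compared as a background to both contrasts. AC245014.3-201 fell by 1.59 and LINC00294-201 by 1.12 in OE_control relative to sh_control (limma adjusted p = 0.0373 and 0.0497), the 2 members called against 0.169% of all tested transcripts (0.0616% higher and 0.108% lower). For AC245014.3-201 the call ended in 6 of the 12 fits that left out 1 library (OE_control replicate 1 or 2, sh_IFI6 replicate 3, or any sh_control library) and for LINC00294-201 in all 12, up to limma adjusted p of 0.114 and 0.141. Both calls also ended with no FPKM filter (limma adjusted p = 0.103 and 0.202), with only the groups compared in the fit (0.0969 and 0.163) and with the replicate number as a block (0.102 and 0.125). That of LINC00294-201 ended with either median-of-ratios scaling (0.0519 and 0.0590) and with annotated transcripts only (0.0518). This contrast and that of OE_IFI6 share the OE_control libraries, so the 2 are not independent. The libraries did not overlap for 141 members (24.3%, 45 higher and 96 lower in OE_control, against 18.9% of all tested transcripts).

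At gene level 37 of the 473 passed between the controls (7.82%, against 7.05% of all genes, 2.47% higher and 4.58% lower), 8 higher and 29 lower in OE_control, and 10 and 20 after scaling the libraries on the coding genes. The count was 20 without OE_control replicate 1, 19 without OE_control replicate 3, and 24, 16 and 22 without sh_control replicates 1, 2 and 3. AC015912.3 stood out in size (3.09, SE 0.79, limma adjusted p = 0.0381). It was at 35.5, 27.0 and 27.3 FPKM in OE_control and 11.8, 0.790 and 1.06 FPKM in sh_control, with 11.6, 0.999 and 14.8 FPKM in OE_IFI6 and 1.48 to 1.77 FPKM in sh_IFI6. It passed in 4 of the 12 fits that left out 1 library, with values up to a limma adjusted p of 0.143 without sh_control replicate 2. The difference between the over-expression and the interference effects was called for 0 members by limma (59 at an unadjusted p under 0.05, lowest adjusted p = 0.182, 0.0462% of all tested transcripts called) and for 14 member genes at gene level, 12 of them positive (2.63% of all genes).

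Tested for any difference between the 4 groups, 1 member passed, AC245014.3-201 (limma F test, adjusted p = 0.0266), against 0.123% of all tested transcripts. At gene level 25 member genes passed, against 5.14% of all genes.

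For GAS5 the split among transcript records varied more between libraries than the gene total did. GAS5, host of many small nucleolar RNAs, had 14 members. GAS5-226 was at 28.99, 29.3 and 38.1 FPKM in OE_IFI6, 35.4, 0.650 and 0.374 FPKM in OE_control, 0.572, 37.3 and 0.453 FPKM in sh_IFI6, and 30.3, 26.6 and 31.4 FPKM in sh_control. It was thus near 0 in 4 libraries, all in OE_control or sh_IFI6, while the GAS5 total stayed within 72.6 to 112 FPKM and did not pass in limma's test in any contrast (adjusted p = 0.372 in OE_IFI6, 0.879 in sh_IFI6, 0.504 between the controls). The totals of these 4 libraries were at the low end of that range.

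MALAT1 varied in both respects. MALAT1-202 was at 8.77, 19.002 and 94.1 FPKM in OE_IFI6, 12.1, 100.7 and 80.4 FPKM in OE_control, 55.5, 42.4 and 31.8 FPKM in sh_IFI6, and 3.52, 1.77 and 26.4 FPKM in sh_control. MALAT1-212, the other main record, was at 8.10 to 64.8 FPKM, and the gene total at 27.0 to 171 FPKM, both extremes being OE_control libraries. The total did not pass in any contrast (limma adjusted p = 0.901, 0.902 and 0.764). MALAT1 is a very long, nuclear RNA, and the spread here is between libraries of 1 group.

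**Figure D5:**
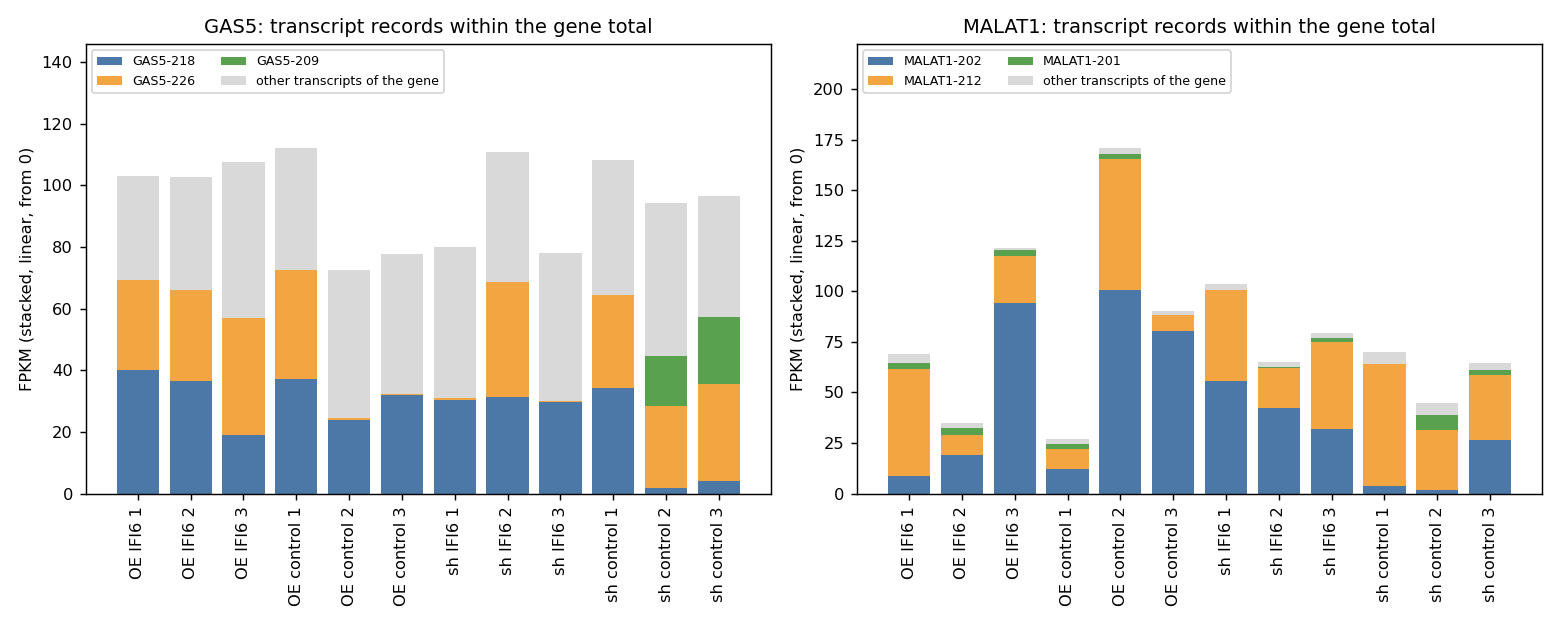
Stacked FPKM of 3 member transcripts and of the remaining transcripts for GAS5 (left) and MALAT1 (right) in the 12 libraries. GAS5-226 is nearly absent from 4 libraries whose GAS5 total lies between 72.6 and 80.1 FPKM, and the MALAT1 total runs from 27.0 to 171 FPKM.

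Over the members as a whole, records that carried less of their gene varied more within groups. The median coefficient of variation within groups was 20.8% for the 239 members that carry at least 90% of their gene and 41.9% for the 231 that carry under 50%. It was 19.4% over all 473 gene sums, and the sums for the genes of the 231 were not taken separately. Of the 580 members 62 were listed at 0 in at least 1 library and 10 in at least 6, among them MIR663AHG-330, at 32.8 FPKM in OE_IFI6 replicate 1 and 0 in the other 11 libraries. The group mean was at least 1 FPKM in all 4 groups for 374 members.

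Other familiar lncRNAs did not pass in any contrast at transcript level. NORAD-201, a cytoplasmic RNA that binds Pumilio proteins, was at 15.97, 18.5 and 16.2 FPKM in OE_IFI6, 10.0, 15.8 and 13.5 FPKM in OE_control, 16.5, 14.2 and 15.8 FPKM in sh_IFI6, and 17.8, 21.2 and 18.2 FPKM in sh_control. OE_IFI6 lay just above OE_control without overlap (0.36, SE 0.21, limma adjusted p = 0.556). TERC-201, the telomerase RNA, was at 1.75 to 2.81 FPKM. CYTOR-201 was at 3.71 to 45.9 FPKM and MIR4435-2HG-203 at 12.99 to 106 FPKM. CYTOR and MIR4435-2HG are near-identical copies on chromosome 2, so their separate values are uncertain. No transcript of NEAT1, PVT1, MIR22HG, LINC-PINT, TP53TG1, UCA1, H19, HOTAIR, MEG3 or KCNQ1OT1 is among the members.

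At transcript level the calls by gene list were few. Of 17 nuclear and chromatin-associated transcripts (FIRRE, FTX, HOTAIRM1, MALAT1, NORAD, TUG1) 0 passed in OE_IFI6 against OE_control, with 1 at an unadjusted p under 0.05 and a median difference of 0.14. The corresponding values were 0 of 24 small nucleolar RNA host transcripts, of DANCR, GAS5 and ZFAS1 (3 at an unadjusted p under 0.05, median 0.03). They were 0 of 23 transcripts linked to p53 and stress, of GAS5, MALAT1, NORAD, PURPL and TUG1 (2, median 0.06). They were 0 of 20 carcinoma-associated transcripts (2, median 0.27) and 0 of 17 microRNA host transcripts (0, median 0.16). These lists share genes, so their counts are not separate. GAS5, with 14 members, is in the host and p53 lists. MALAT1, NORAD and TUG1 are in the nuclear and p53 lists, and MIR31HG and MIR4435-2HG in the carcinoma and microRNA host lists. Among all tested transcripts 11.3% had an unadjusted p under 0.05, and the median was -0.00. Of 53 transcripts with a LINC name 1 rose, and of 337 with only a clone name 1 rose, against 0.108% of all tested transcripts. At gene level 2 of 42 LINC genes rose, 17 of 322 clone-named genes rose and 14 fell, and 1 of 5 carcinoma-associated genes, CASC19, rose, against 4.09% higher and 3.23% lower among all genes. Within the first list HOTAIRM1-202 was at 0.627, 0.663 and 0.541 FPKM in OE_IFI6 and 1.96, 1.92 and 1.36 FPKM in OE_control, which did not overlap (-0.76, SE 0.16, limma adjusted p = 0.106).

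The members are a mixture by position. Of the 580, 505 matched GENCODE release 29 by identifier, and 480 of these had the same bounds. A total of 283 had no coding gene over them, 108 shared exon bases with a coding gene on the opposite strand, 48 shared them on the same strand, 38 and 28 lay in a coding gene's body on the same or the opposite strand without shared exon bases, and 75 were not in release 29. Thus absence of the gene identifier from the coding table does not place a transcript outside coding exons, and 26 members lay wholly on them. The median length was 881 nt, and 186 of 505 had a single exon.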

How the data were processed

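RNA of 12 libraries was sequenced, and the authors deposited FPKM values per transcript and per gene. HISAT2, StringTie and Cuffdiff are named, among other tools, in the submitters' processing notes, without versions. For the build, the annotation release and the use of strand: not given in the sources used here. No read counts were used, so the depth behind each value is unknown.

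Values were analysed as log2(FPKM + 1) with limma 3.58.1 in R 4.3.3 with the package data.table, version 1.17.8, as a trended, two-sided group-means fit over all 12 libraries with 8 residual degrees of freedom. Benjamini-Hochberg adjustment ran over the 6496 lncRNA-table transcripts, or over the genes, that averaged 1 FPKM or more, and 0.05 was the threshold. Tables and figures used Python 3.11.15, pandas 2.3.3, numpy 2.4.6, scipy 1.17.1 and matplotlib 3.10.9. Exon positions came from GENCODE release 29 (GRCh38).

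On simulated data for OE_IFI6 against OE_control with 6496 transcripts, 20% of 100 transcripts changed by 1 on the log2 scale were recovered and 66% of 100 changed by 2, with 5 false calls (5.49% of calls).

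Named transcripts were the 10 of highest mean, those called (or the 5 of smallest p) per contrast, the 10 of smallest F-test p, well-known lncRNAs, up to 4 per gene list, the 3 on either side of the FPKM limit and coding neighbours. The members, the lists and this rule were chosen with earlier results of these data known. The alternatives were other pseudocounts, filters, scalings and priors, a replicate block, gene sums and leaving out each library. 1 abundant transcript at a small RNA gene is not reported here.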

Additional observations from a re-analysis of the deposited data

How the results depend on the processing

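For OE_IFI6 against OE_control the count of 2 called members became 0 with no FPKM filter, 7 with a minimum mean of 5 FPKM (4 higher and 3 lower of 80 tested), 0 with only the groups compared in the fit and 36 at gene level. Leaving out 1 library gave 0 to 5. For OE_control against sh_control the count of 2 became 0 with no filter, 4 with the minimum of 5 FPKM, 1 with either median-of-ratios scaling, 1 with only the groups compared, 1 with annotated transcripts only and 37 at gene level, and 0 to 3 without 1 library. For sh_IFI6 against sh_control 0 stayed 0 except for 0 to 2 without 1 library (2 without sh_control replicate 1). For the difference between the effects 0 became 1 with the minimum of 5 FPKM and 14 at gene level, and 0 to 1 without 1 library. For any difference between the groups 1 became 2 with a pseudocount of 0.1, 0 with no filter, 3 with the minimum of 5 FPKM, 2 without a trended prior, 2 with a robust prior and 25 at gene level, and 0 to 3 without 1 library. The gene-level counts, whose own alternatives were chosen after seeing the data, ran from 23 to 33 in OE_IFI6 and from 16 to 41 between the controls without 1 library, and stayed at 0 in sh_IFI6. With the replicate number as a block the counts were 1 in OE_IFI6, 0 between the controls and 0 for any difference, and 30, 0 and 37 at gene level in the 3 contrasts. Same-numbered libraries showed only weak correlations of their deviations (-0.07 to 0.09 over 18 pairs, 7 of 12 libraries closest to one of their own number). Between OE_IFI6 and OE_control, every same-numbered pair was positive (0.05 to 0.09) and every other pair negative (-0.06 to -0.002). The main fit used no pairing, and whether the OE libraries were paired was not tested. The block counts above come from a block shared by all 4 groups, so they do not give a pairing within the OE groups alone. Of the values of the 90 named transcripts under the alternatives, 8189 kept their side of the threshold, 53 newly passed, 44 no longer passed and 0 reversed. Nearly all of the 8189 were values that did not pass in the main fit and still did not pass. Only the 2 called members, each called in OE_IFI6 and between the controls, had calls to lose, and all 44 losses were theirs. The 8189 therefore does not measure how stable the calls were. The cause of the changes in calls and counts was not tested. The files used give no counts, so the precision that depth allows near 1 FPKM is unknown.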
